A study of Mus musculus with 6 samples.

Results

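The interferon regulatory factors are a family of transcription factors, and 8 of their genes, Irf1, Irf2, Irf3, Irf4, Irf5, Irf7, Irf8 and Irf9, were followed in mouse bone marrow derived macrophages. They were chosen by symbol, as 8 rows of a table of 52459 genes, and all 8 passed the filter on low counts that left 14857 genes for testing. One group of cells received RIP1i, which the labels name without its compound or dose, and the other received DMSO, the solvent control. Both groups were C57BL/6 marrow cells grown with GM-CSF, a cytokine that yields macrophages together with related myeloid cells, and both were treated overnight from day 7. Each group held 3 libraries, and the labels do not say whether these came from separate cultures or animals, so p-values measure only the spread between libraries. Library totals ran from 40264902 to 44862310 counts. No label gives an age, a sex or a genetic change.

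All family members bind DNA through a shared amino-terminal domain and recognise elements built from GAAA repeats. IRF3 and IRF7 are phosphorylated downstream of nucleic acid sensors and switch on the type I interferon genes, and IRF9 joins STAT proteins in the complex ISGF3 that carries the interferon signal to its target genes. IRF1 serves the interferon gamma response, IRF2 competes for the same elements, IRF5 works downstream of Toll-like receptors, and IRF4 and IRF8 act with partners such as PU.1 in myeloid and lymphoid cells.

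The control regions of 5 members are shown because 3 of them, Irf1, Irf2 and Irf8, held letter matches to response elements near the start. The other pair, Irf4 and Irf7, varied most between libraries. Each window runs from 250 bases before to 50 bases after a transcription start in RefSeq, build GRCm38.p6, printed 5′ to 3′ on the strand of the gene. The windows are chr11:53769764-53770063 (plus strand) for Irf1, chr8:46739495-46739794 (plus) for Irf2, chr8:120736108-120736407 (plus) for Irf8, chr13:30748983-30749282 (plus) for Irf4 and chr7:141266375-141266674 (minus) for Irf7. Capitals mark matches, on either strand, to the interferon response core GAAANNGAAA, the STAT element TTCNNNGAA, the composite GGAANNGAAA bound by ETS and IRF factors together, or the kappaB element.
Irf1: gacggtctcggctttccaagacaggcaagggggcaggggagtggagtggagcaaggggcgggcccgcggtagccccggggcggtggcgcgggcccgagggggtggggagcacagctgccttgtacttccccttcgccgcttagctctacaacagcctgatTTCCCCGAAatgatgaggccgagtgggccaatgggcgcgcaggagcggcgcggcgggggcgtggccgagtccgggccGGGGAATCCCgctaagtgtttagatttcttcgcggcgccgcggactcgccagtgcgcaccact
Irf2: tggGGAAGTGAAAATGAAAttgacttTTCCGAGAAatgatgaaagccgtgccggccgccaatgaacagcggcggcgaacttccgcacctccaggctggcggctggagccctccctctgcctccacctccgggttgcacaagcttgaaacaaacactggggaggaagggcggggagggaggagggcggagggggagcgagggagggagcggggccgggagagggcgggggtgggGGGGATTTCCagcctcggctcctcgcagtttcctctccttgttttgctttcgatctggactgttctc
Irf8: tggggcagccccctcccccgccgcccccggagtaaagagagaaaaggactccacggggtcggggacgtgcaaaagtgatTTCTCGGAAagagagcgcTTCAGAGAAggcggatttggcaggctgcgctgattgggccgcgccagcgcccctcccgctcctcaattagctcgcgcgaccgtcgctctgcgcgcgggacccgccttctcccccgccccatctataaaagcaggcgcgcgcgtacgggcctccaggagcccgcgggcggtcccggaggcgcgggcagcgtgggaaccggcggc
Irf4: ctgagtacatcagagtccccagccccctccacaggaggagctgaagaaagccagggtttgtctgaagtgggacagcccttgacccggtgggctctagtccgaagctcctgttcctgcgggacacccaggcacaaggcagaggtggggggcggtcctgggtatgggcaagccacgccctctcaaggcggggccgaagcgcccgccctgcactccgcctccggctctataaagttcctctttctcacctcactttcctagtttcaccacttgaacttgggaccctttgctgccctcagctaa
Irf7: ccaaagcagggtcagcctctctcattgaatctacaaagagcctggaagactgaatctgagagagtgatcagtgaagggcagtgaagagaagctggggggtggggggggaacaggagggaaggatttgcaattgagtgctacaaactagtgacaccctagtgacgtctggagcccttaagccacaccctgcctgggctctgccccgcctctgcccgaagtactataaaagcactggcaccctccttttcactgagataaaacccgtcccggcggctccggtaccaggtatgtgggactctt

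The Irf1 window held 1 STAT element, TTCCCCGAA, beginning 90 bases before the start, and 1 kappaB element, GGGGAATCCC, beginning 13 bases before it. The Irf2 window held the response core GAAAATGAAA, beginning 241 bases before the start and overlapping the composite GGAAGTGAAA, as well as the STAT element TTCCGAGAA and the kappaB element GGGGATTTCC. The Irf8 window held 2 STAT elements, TTCTCGGAA and TTCAGAGAA, beginning 171 and 153 bases before the start. Across 32851 windows of 300 bases, the response core was present in 3.44%, the STAT element in 8.30%, the composite in 2.72% and the kappaB element in 4.51%. Of the 11 windows listed for the 8 members, the other 8 held none of these letters. A match describes the sequence only.

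The 8 genes covered a wide span of levels. On the deposited FPKM scale, which accounts for gene length, Irf5 stood at 115 ± 2.52 in RIP1i and 112 ± 1.69 in DMSO (SD, n = 3 each). Its mean over all 6 libraries was 4.20 times that of Irf8, the next in order, and 2.53% of the tested genes had a mean FPKM at least as high. Irf8, a factor of the monocyte and dendritic cell lineages, stood at 26.1 ± 0.826 FPKM in RIP1i and 27.9 ± 0.856 FPKM in DMSO. Irf4, which in GM-CSF cultures is linked to CCL17 production, stood at 26.1 ± 2.99 FPKM in RIP1i and 21.8 ± 3.15 FPKM in DMSO. The ranges of Irf8 and Irf4 over the 6 libraries overlapped, so their order is not settled.

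Below their ranges came Irf3 with a mean of 14.7 FPKM over 6 libraries (range 13.6 to 15.5), Irf1 with 12.2 (11.8 to 12.7) and Irf9 with 11.9 (10.7 to 12.5). The Irf3 range lay above that of Irf1, whereas Irf1 and Irf9 overlapped and Irf1 was the higher in 3 of 6 libraries. Irf7, the interferon-inducible partner of IRF3, followed at 4.99 FPKM (3.29 to 6.42), and Irf2 was last at 2.44 FPKM (2.15 to 2.95). Neither range overlapped that of its neighbour. Of the summed FPKM of the 8 genes, Irf5 made up 54.2% ± 0.106 in RIP1i and 53.5% ± 0.609 in DMSO. The share of Irf4 in that sum was 12.3% ± 1.16 in RIP1i and 10.4% ± 1.28 in DMSO, and that of Irf8 was 12.3% ± 0.323 in RIP1i and 13.3% ± 0.390 in DMSO (SD, n = 3 each).

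**Figure D1:**
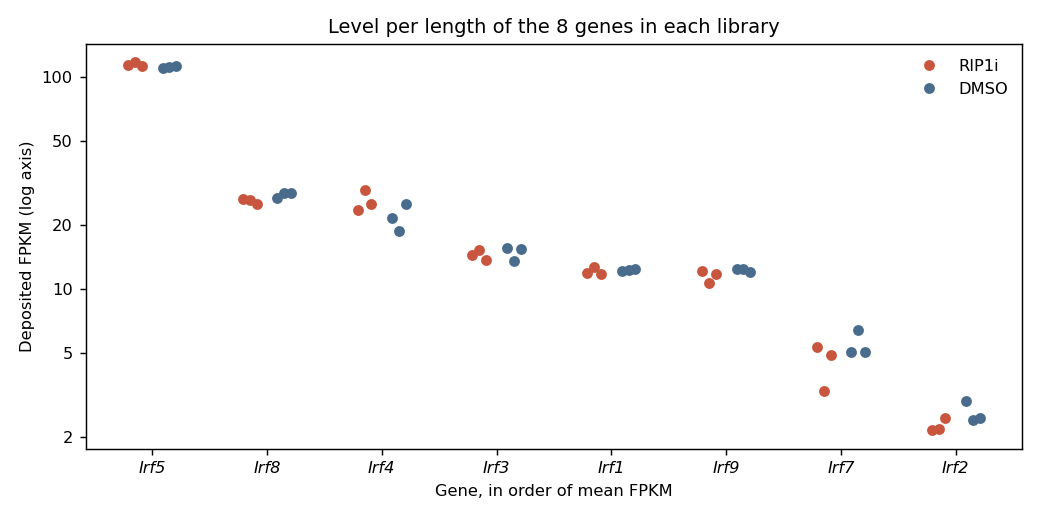
Deposited FPKM (log axis) of the 8 genes, ordered by their mean over 6 libraries, with 1 point per library for RIP1i (red, left) and DMSO (blue, right). Irf5 stands apart from all others in every library, while Irf8 and Irf4, and Irf1 and Irf9, overlap.

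Macrophage and dendritic cell transcripts were both present, with none of the 10 macrophage or 8 dendritic cell markers at 0. No marker of the stromal, neutrophil, plasmacytoid dendritic cell or B cell lists stood at 0 either, so this does not tell cell types apart. Csf1r, the receptor gene for CSF1, stood at 1401 ± 113 CPM (counts scaled by library size) in RIP1i and 1468 ± 80.9 CPM in DMSO, and Adgre1, which encodes F4/80, at 597 ± 103 CPM in RIP1i and 574 ± 67.8 CPM in DMSO (SD, n = 3 each). Itgax, frequent in dendritic cells, stood at 1335 ± 62.2 CPM in RIP1i and 1225 ± 79.7 CPM in DMSO. It held most of the sum of the 8 dendritic cell markers, which ran from 1325 to 1466 CPM in RIP1i and from 1217 to 1375 CPM in DMSO. Of the macrophage markers 8 of 10 were fitted lower in RIP1i, at a median log2 fold change of -0.051, and 8 of 10 without replicate 2 of both groups. Of the dendritic cell markers 5 of the 7 tested were fitted higher, at a median of 0.068, but 3 of 7 without both replicates 2, at -0.040. Their mean centred log2 CPM was highest in RIP1i replicate 2 (0.25), with DMSO replicate 3 nearly level (0.24), and lowest in DMSO replicate 2 (-0.22). The highest and the lowest library were the same as for Irf4, which stood at 0.073 on that scale in DMSO replicate 3. Leaving out both replicates 2 thus of itself lowers the fitted values of the dendritic cell markers.

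The summed level of 10 stromal markers was 228, 76.9 and 180.2 CPM in RIP1i replicates 1 to 3, against 199.9, 357 and 85.3 CPM in DMSO replicates 1 to 3. RIP1i replicate 2 was thus the lowest and DMSO replicate 2 the highest library. Of these 10 markers, all tested, 9 were fitted lower in RIP1i, with a median log2 fold change of -0.42, and none stood at 0. The tally turned to 9 of 10 higher without DMSO replicate 2 (median 0.14) and without both replicates 2 (median 0.47). The 9 neutrophil markers summed to 464, 656 and 223 CPM in RIP1i, against 457, 226 and 624 CPM in DMSO, and 7 of the 8 tested were fitted higher, at a median of 0.045. Here 7 of 8 were fitted lower without RIP1i replicate 2 (median -0.36) or without DMSO replicate 2 (-0.25), and 8 of 8 without both (-0.64). On centred log2 CPM, RIP1i replicate 2 was the highest (0.65) and DMSO replicate 2 the lowest (-0.84) library of the neutrophil markers. Leaving out such extremes of itself moves the tallies of the stromal and neutrophil markers.

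None of the 8 genes passed the test for a treatment difference. By the quasi-likelihood test of edgeR, with Benjamini-Hochberg adjustment over all 14857 genes, 0 of 8 members had an adjusted p under 0.05, against a background of 0% of all genes, and 0 of 8 had an unadjusted p under 0.05, against 6.21% (923 genes). DESeq2 called 0 members, against 0.0135% of all genes, and limma-voom also called 0. At an unadjusted p under 0.05 DESeq2 had 1 of 8 members, Irf4, against 3.84% of all genes (571). The edgeR count of 0 members depended on the setting. Irf8 was at an unadjusted p of 0.048 with median-of-ratios scaling, where 898 of 14857 genes were under 0.05. With upper-quartile scaling it was at 0.044 (897 genes), and with a filter of 1 CPM in 3 libraries at 0.046 (797 of 12022). Without a filter Irf4 (0.017) and Irf2 (0.039) were under 0.05, as were 1205 of 27262 genes. Limma-voom and the replicate block had 0 members under 0.05. In the edgeR fit 6 members were fitted lower and 2 higher in RIP1i, where 49% of all genes were fitted lower and 51% higher. The median log2 fold change was -0.062 over the members and 0.0025 over all genes. For 7 of 8 members the whole 95% interval lay within 1.5-fold of no change in either direction, and for 5 of 8 within 1.2-fold. The exception to the wider bound was Irf7. In bulk RNA, fewer cells of a type and less RNA per cell cannot be told apart.

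**Figure D2:**
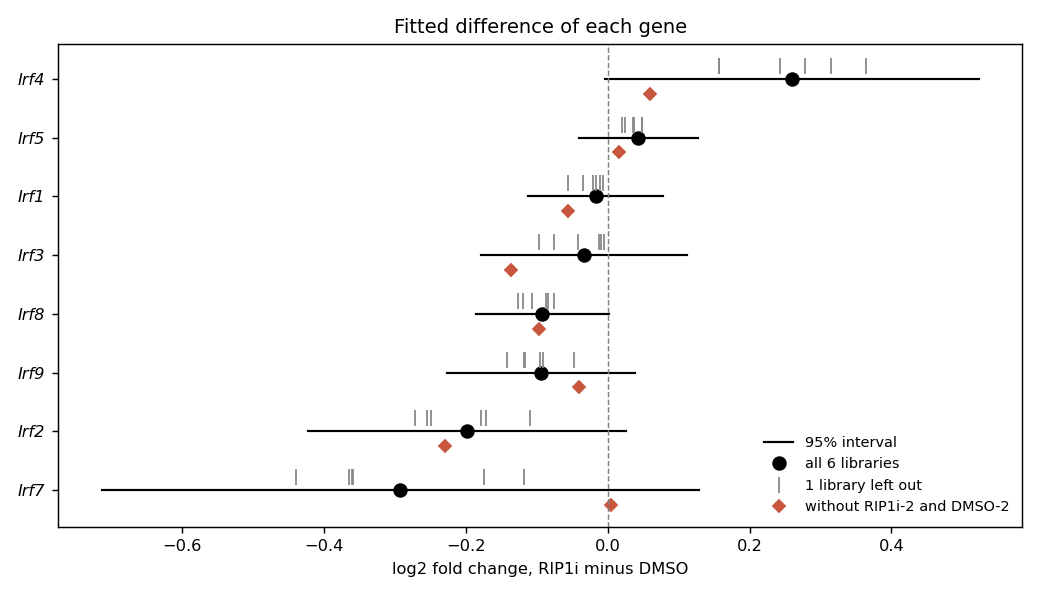
Log2 fold change of each gene, RIP1i minus DMSO, with its 95% interval (black), the values with 1 library left out (grey ticks) and the value without replicate 2 of both groups (red diamonds). Every interval includes 0, and without both replicates 2 Irf4 moves to 0.060 and Irf7 to 0.0045. Those libraries are the extremes of both genes.

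Irf3 and Irf7 encode factors that act on the interferon genes themselves. Irf7 (chromosome 7, 141262706 to 141266481, minus strand, GENCODE M21 on GRCm38) had 20.1, 12.4 and 18.5 CPM in RIP1i replicates 1 to 3, against 19.2, 24.3 and 18.9 CPM in DMSO replicates 1 to 3. RIP1i replicate 2 was the lowest and DMSO replicate 2 the highest, while the other 4 libraries lay between 18.5 and 20.1 CPM and the groups overlapped. This was the widest spread of the 8 genes, with a ratio of 1.96 between the highest and the lowest library, on 521 to 976 counts.

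The log2 fold change of Irf7 was -0.29 with a 95% interval from -0.71 to 0.13 (edgeR adjusted p = 0.811). It was -0.12 without RIP1i replicate 2, -0.17 without DMSO replicate 2 and 0.0045 without both. Its coefficient of variation was 23.9% in RIP1i and 14.5% in DMSO, where counting alone gives about 3.54% at its mean count. Irf3 (chromosome 7, 44997648 to 45002848, plus strand), which is present before any stimulus, had 50.1, 52.3 and 47.9 CPM in RIP1i, against 53.7, 47.0 and 53.0 CPM in DMSO. The groups overlapped, and its log2 fold change was -0.033 with an interval from -0.18 to 0.11 (edgeR adjusted p = 0.938). The fitted value was -0.076 without RIP1i replicate 2, -0.097 without DMSO replicate 2 and -0.14 without both.

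Irf9 (chromosome 14, 55603571 to 55610030, plus strand), the DNA-binding subunit of ISGF3, had 65.6, 57.2 and 63.9 CPM in RIP1i, against 67.3, 67.2 and 64.7 CPM in DMSO. RIP1i replicate 2 was again the lowest, and RIP1i replicate 1 lay above DMSO replicate 3. The log2 fold change was -0.094 with an interval from -0.23 to 0.038 (edgeR adjusted p = 0.810), -0.048 without RIP1i replicate 2 and -0.041 without both replicates 2. Irf9 shares 123 exonic bases with Rnf31 on the same strand in the annotation, and how such reads were counted is not given in the sources used here.

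Irf1 and Irf2 share binding elements, IRF1 as an activator and IRF2 mostly as its competitor. Irf1 (chromosome 11, 53770014 to 53778374, plus strand) was among the steadiest of the 8 genes, with 47.4, 50.3 and 47.4 CPM in RIP1i against 48.5, 49.0 and 49.2 CPM in DMSO. Its groups overlapped, and the log2 fold change was -0.017, with an interval from -0.11 to 0.079 (edgeR adjusted p = 0.951). It was -0.056 without RIP1i replicate 2 and -0.057 without both replicates 2. Irf2 (chromosome 8, 46739732 to 46847458, plus strand) had 16.0, 16.1 and 18.4 CPM in RIP1i, against 21.9, 17.9 and 18.1 CPM in DMSO. DMSO replicate 1 was the highest, and RIP1i replicate 3 lay above the other two DMSO libraries. The log2 fold change of Irf2 was -0.20 with an interval from -0.42 to 0.026 (edgeR adjusted p = 0.786). It was -0.11 without DMSO replicate 1 and -0.23 without both replicates 2.

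Irf5 (chromosome 6, 29526625 to 29541871, plus strand), which drives inflammatory cytokine genes in macrophages, had 333, 341 and 330.3 CPM in RIP1i, against 321, 324 and 329 CPM in DMSO. All 3 RIP1i libraries lay above all 3 DMSO libraries, as they did for 7.36% of all genes. The difference was small, with 0.043 as the log2 fold change and an interval from -0.041 to 0.13 (edgeR adjusted p = 0.856). Leaving out RIP1i replicate 2 gave 0.020, leaving out DMSO replicate 1 gave 0.024, and leaving out both replicates 2 gave 0.016. In the annotation 14.1% of the exonic bases of Irf5 overlap Tnpo3 on the opposite strand, and the strand setting of the counting is not given in the sources used here.

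Irf4 (chromosome 13, 30749226 to 30766976, plus strand) had 117, 144 and 124 CPM in RIP1i, against 106, 92.5 and 123 CPM in DMSO. RIP1i replicate 2 was the highest and DMSO replicate 2 the lowest library, the reverse of their places for Irf7, and DMSO replicate 3 lay above RIP1i replicate 1. The log2 fold change was 0.26 ± 0.11 (SE) with an interval from -0.0042 to 0.52 (edgeR adjusted p = 0.777, unadjusted p = 0.0529), on 3717 to 6064 counts. DESeq2 gave 0.25 with an unadjusted p of 0.0216 and an adjusted p of 1.000. The value was 0.16 without RIP1i replicate 2, also 0.16 without DMSO replicate 2, and 0.060 without both.

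Irf8 (chromosome 8, 120736358 to 120756694, plus strand) had 189, 185 and 179 CPM in RIP1i, against 190.3, 200.1 and 199.8 CPM in DMSO. All RIP1i libraries lay below all DMSO libraries, as they did for 6.18% of all genes, although RIP1i replicate 1 and DMSO replicate 1 nearly met. The log2 fold change was -0.092 ± 0.040 (SE) with an interval from -0.19 to 0.0019 (edgeR adjusted p = 0.777, unadjusted p = 0.0537). It was -0.096 without both replicates 2, and it ran from -0.13 to -0.075 with each library left out in turn. Both replicates 2 are the extremes of Irf4 and Irf7, so leaving them out must reduce the fitted differences of those genes. That setting therefore cannot set Irf8 apart from them. Irf4, Irf8 and Irf2 were the 3 members with an unadjusted p under 0.1, which 12.7% of all genes reached.

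**Figure D3:**
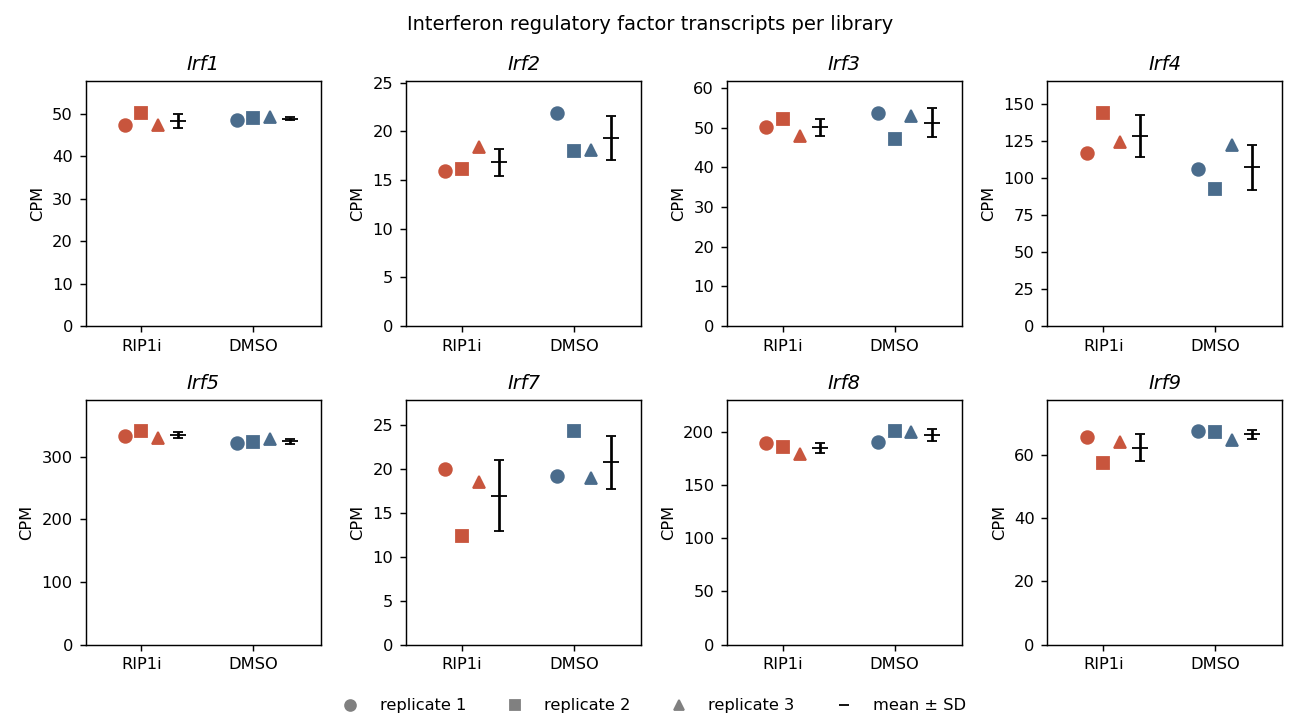
CPM of each of the 8 genes in the RIP1i libraries (red) and DMSO libraries (blue), with the replicate number by symbol and the mean ± SD (n = 3) in black. Replicate 2 of RIP1i and replicate 2 of DMSO lie at opposite ends for Irf4 and Irf7.

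Ratios between members within a library do not depend on its depth, and 3 pairs were compared. The ratio of Irf4 to Irf8 FPKM was 0.888, 1.12 and 0.998 in RIP1i replicates 1 to 3, against 0.804, 0.665 and 0.883 in DMSO replicates 1 to 3. The groups did not overlap, but RIP1i replicate 1 and DMSO replicate 3 nearly met. The mean log2 ratio was -0.0045 ± 0.17 in RIP1i and -0.36 ± 0.21 in DMSO (SD, n = 3 each), a difference of 0.36 with an exact 2-sided permutation p of 0.1, the smallest that 3 against 3 libraries allow, and 0.3 after adjustment over the 3 ratios. It was 0.27 without RIP1i replicate 2, 0.24 without DMSO replicate 2 and 0.16 without both.

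The Irf1 to Irf2 ratio was 5.53, 5.82 and 4.80 in RIP1i, against 4.12, 5.08 and 5.07 in DMSO. These groups overlapped, with a log2 difference of 0.18 (exact permutation p = 0.3, adjusted p = 0.45). It was 0.080 without DMSO replicate 1 and 0.17 without both replicates 2. The Irf7 to Irf3 ratio was 0.365, 0.216 and 0.353 in RIP1i, against 0.326, 0.471 and 0.326 in DMSO. RIP1i replicates 1 and 3 lay above DMSO replicates 1 and 3. The log2 difference of -0.28 (exact permutation p = 0.6, adjusted p = 0.6) became -0.038 without RIP1i replicate 2, -0.10 without DMSO replicate 2 and 0.14 without both.

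**Figure D4:**
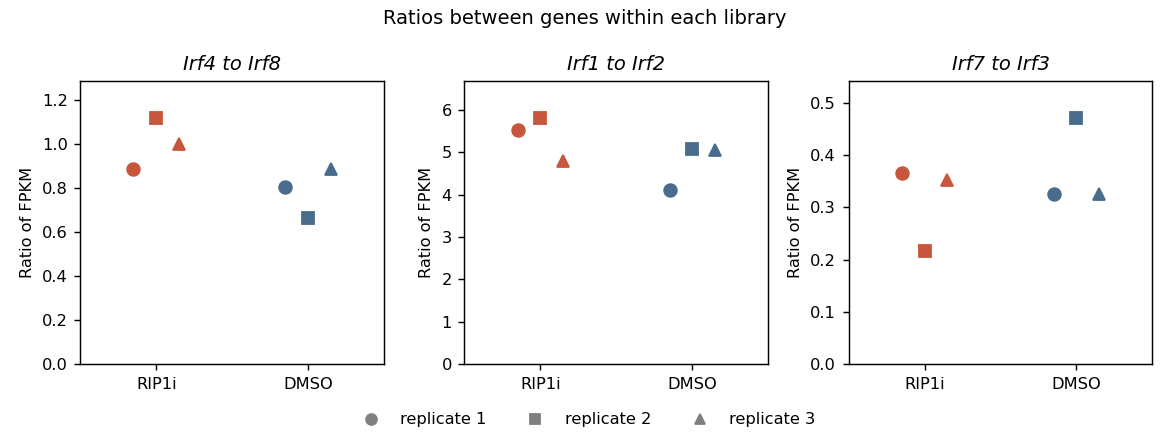
Ratio of FPKM between 2 genes within each library, for RIP1i (red) and DMSO (blue), with the replicate number by symbol. The Irf4 to Irf8 ratio lies between 0.888 and 1.12 in RIP1i and between 0.665 and 0.883 in DMSO, and the other ratios overlap.

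Among the genes that feed the family, the interferons themselves were nearly absent. Ifnb1, the interferon beta gene that IRF3 and IRF7 act on, had 0 or 1 counts in RIP1i libraries and 0 to 3 in DMSO libraries, and the other 7 interferon genes listed had 0 counts in every library, which allows up to 3 counts per library for counting error alone. Of 17 nucleic acid sensors and adaptors 11 were fitted lower (10 without both replicates 2), and 2 of them had an unadjusted p under 0.05 against 2.62% of all genes in that direction. These were Dhx58, a RIG-I-like receptor gene, at a log2 fold change of -0.29 ± 0.096 (SE), and Zbp1, whose product senses nucleic acids in the Z form, at -0.22 ± 0.085. For each of them RIP1i replicate 2 was the lowest and DMSO replicate 2 the highest library, and without both Dhx58 was at -0.15 and Zbp1 at -0.11. Dhx58 and Ifih1, another sensor gene of this list, also belong to the ISGF3 and IRF7 target list below, so the results of these lists are not independent.

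Tbk1, the kinase of IRF3 and IRF7, stood at 114 ± 4.97 CPM in RIP1i and 113 ± 2.06 CPM in DMSO, a log2 fold change of 0.010. Ikbke, which encodes the related kinase IKK epsilon, had 56.7, 47.7 and 59.9 CPM in RIP1i against 64.3, 68.6 and 60.1 CPM in DMSO, a log2 fold change of -0.23 ± 0.089, and of -0.11 without both replicates 2. Tbkbp1, which encodes an adaptor of TBK1, had -0.16 ± 0.058, and -0.22 without both. In that list of 14 kinases and ubiquitin ligases 9 were fitted lower, where 49% of all genes were, with a median of -0.019. Without RIP1i replicate 2 the list had 7 of 14 lower and a median of 0.0031, and without both replicates 2 it had 5 of 14 lower and a median of 0.019. No gene of these lists passed the adjusted threshold.

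The interferon receptors, JAKs and STATs were split into 6 fitted higher and 6 lower, and into 4 higher and 8 lower without both replicates 2. Stat2, the partner of IRF9 in ISGF3, had 143, 127 and 143 CPM in RIP1i against 148, 159 and 147 CPM in DMSO, a log2 fold change of -0.14 ± 0.058 that did not pass (edgeR adjusted p = 0.777). RIP1i replicate 2 and DMSO replicate 2 were once more the lowest and the highest, and the value was -0.062 without both. Of the 15 partners and co-regulators, 7 were fitted higher and 8 lower, against 9 higher and 6 lower without both replicates 2. Spi1, which encodes PU.1, stood at 279 ± 10.7 CPM in RIP1i and 271 ± 7.44 CPM in DMSO (log2 fold change 0.041). Batf, which encodes an AP-1 partner of IRF4 and IRF8, had 17.1, 19.3 and 17.3 CPM in RIP1i against 15.1, 14.8 and 16.8 CPM in DMSO, without overlap, at 0.20 ± 0.075, and at 0.095 without both replicates 2. It was the 1 gene of its list with an unadjusted p under 0.05, against 3.59% of all genes in that direction, and it did not pass after adjustment.

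Of the target lists, that of ISGF3 and IRF7 was the one with all of its genes, 28 of 28, fitted lower in RIP1i. Its median log2 fold change was -0.29, beside 0.0025 over all genes, and this direction was known from these data when the list was made. None passed, 6 had an unadjusted p under 0.05 (2.62% of all genes in that direction) and 8 did not overlap (6.18%). Mx1, an interferon-induced GTPase gene, had 14.1, 12.9 and 11.6 CPM in RIP1i against 16.2, 16.7 and 17.9 CPM in DMSO, and here the replicates 2 were not the extremes. Its log2 fold change was -0.40 with all libraries and -0.42 without both replicates 2. Ifit3, an interferon-induced RNA-binding protein gene, had 9.92, 5.51 and 9.40 CPM in RIP1i against 12.4, 16.3 and 10.6 CPM in DMSO, with both replicates 2 as the extremes. Its log2 fold change was -0.66, and -0.26 without them. Without RIP1i replicate 2 the list had 24 of 28 fitted lower with a median of -0.11, and without both replicates 2 it had 16 of 28 and -0.027, where 51.7% of all genes were fitted lower. On centred log2 CPM, RIP1i replicate 2 was the lowest library of the list as a whole (-0.52) and DMSO replicate 2 the highest (0.31). Leaving them out of itself reduces its fitted difference, so that setting cannot decide whether the list differs.

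The 22 targets of IRF1 were split into 12 fitted higher and 10 lower, with a median log2 fold change of 0.017. Cd274, which encodes PD-L1, was the 1 of these 22 with an unadjusted p under 0.05, against 3.59% of all genes in that direction. It had a log2 fold change of 0.089 ± 0.034 (SE) and did not pass (edgeR adjusted p = 0.777). The 16 tested genes of the list tied to IRF8 had 9 fitted higher and 7 lower, with a median of 0.0043 and none at an unadjusted p under 0.05. Of the 14 tested genes linked to IRF4 in GM-CSF cultures, 10 were fitted higher, with a median of 0.087. Ccl17, a T cell chemokine gene of that list, had 491, 510.5 and 543 CPM in RIP1i against 395, 399 and 461 CPM in DMSO, a log2 fold change of 0.30 ± 0.071 that did not pass (edgeR adjusted p = 0.777). Without RIP1i replicate 2 the IRF4 list had 5 of 14 fitted higher and its median turned to -0.044, without DMSO replicate 2 it had 6 of 14 and -0.0071, and without both it had 4 of 14 and -0.13. On centred log2 CPM, RIP1i replicate 2 was the highest (0.28) and DMSO replicate 2 the lowest (-0.22) library of that list. Leaving them out of itself lowers its fitted values. Ccl17 itself was at 0.26 without both. Of 7 tested cytokine targets of IRF5, 4 were fitted lower, with and without both replicates 2, among them the chemokine gene Ccl5 at -0.26 ± 0.097, which also did not pass. That tally was not stable, at 3 of 7 lower without RIP1i replicate 2 and 7 of 7 lower without RIP1i replicate 3 (median -0.10).

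For the 2 members that ranged over at least 0.5 log2 units, the genes closest in pattern were sought by the root mean square difference of centred log2 CPM over the 6 libraries, among 9460 genes averaging 5 CPM or more. For Irf7 these were Isg15, a ubiquitin-like modifier gene, at 0.051, Usp18, which encodes the protease that removes it, at 0.067, and Rnf213, a ubiquitin ligase gene, at 0.068, where the median gene lay 0.302 away. Isg15 had 5.68, 3.68 and 5.39 CPM in RIP1i against 5.89, 7.59 and 5.88 CPM in DMSO, the same placing of both replicates 2 as in Irf7, and its log2 fold change of -0.39 was -0.10 without both. For Irf4 they were Fam57a at 0.046, Chml, a Rab escort protein gene, at 0.054 and Utp14b at 0.058, where the median gene lay 0.203 away. These are descriptions over 6 libraries that share one preparation scheme.

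DMSO replicate 3 was close to RIP1i replicate 2 in the stromal and neutrophil sums. It had the highest Irf4 and the lowest Irf7 of the DMSO group. That Irf7 level was 18.9 CPM, near the 19.2 CPM of DMSO replicate 1. The part of these markers in the levels of Irf4 and Irf7 was not tested.

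**Figure D5:**
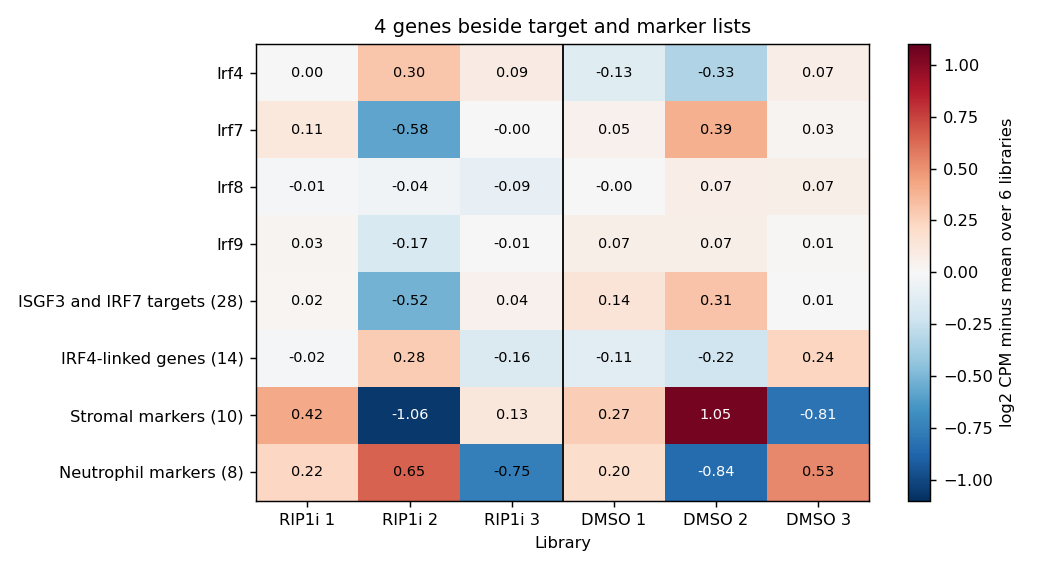
Log2 CPM minus its mean over 6 libraries for 4 genes and, as a mean over their tested genes, for 4 lists (number of genes in brackets), RIP1i libraries left of the line and DMSO libraries right. RIP1i 2 and DMSO 2 have opposite signs for all 8 items shown, from -0.039 against 0.071 for Irf8 to -1.06 against 1.05 for the stromal markers. Of the items not shown, they share a sign for Irf1 and Irf2. They also do so for the IRF5 target cytokines (-0.11 and -0.13) and the plasmacytoid dendritic cell markers (-0.30 and -0.021). The remaining target and marker lists have opposite signs.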

How the data were processed

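Total RNA from 6 libraries was sequenced after a TruSeq RNA kit, per the labels' protocols. The authors deposited raw read counts per gene and FPKM values for the same genes. The submitters' processing notes name the mouse build mm10 and the tools STAR 2.5.3a, Subread 1.4.6-p3 with featureCounts, CASAVA 1.8.4 and DESeq2 1.14.0, with the role of each, the annotation, the strand setting and the handling of multiply mapped reads not given in the sources used here. The deposited FPKM hold the same reads under another scaling.

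Counts were filtered with filterByExpr of edgeR 4.0.16 (minimum count 10, minimum total 15) and scaled with TMM in R 4.3.3. RIP1i was compared with DMSO by the 2-sided quasi-likelihood F test, with treatment as the only term and Benjamini-Hochberg adjustment over all genes. SE came from the F statistic, and 95% intervals from the t distribution. CPM use TMM scaling, and log2 CPM a prior count of 2. Ratios of FPKM were tested by exact permutation with scipy 1.17.1. Alternatives were other scalings and filters, DESeq2 1.42.0, limma-voom, limma-trend on log2 FPKM with 1 or 0.1 added (limma 3.58.1), a replicate block and left-out libraries. The edgeR, DESeq2 and limma-voom fits were tested on simulated data.

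The 8 members, 19 gene lists and tests were chosen with earlier results of these data known. Named genes are the members, up to 4 of each list with the smallest p, genes fixed by name, untested genes by their counts, and the 3 genes closest in pattern to members ranging over at least 0.5 log2 units. Adgre1, Csf1r and Itgax come from the marker lists. Positions are from GENCODE M21, sequences from RefSeq. No pair of libraries in a group had equal counts within sampling noise.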

Additional observations from a re-analysis of the deposited data

How the results depend on the processing

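The count of genes past the adjusted threshold was 0 in the edgeR fit with all libraries, and also 0 with other scalings, other count filters, limma-voom, a replicate block, and each library left out in turn (from 0 to 0). It was 2 with DESeq2 and 9 with limma-trend on log2(FPKM + 1) without a filter, and no member was among those. The 8 fold changes kept their sign under every alternative except 1: without RIP1i replicate 2 and DMSO replicate 2, Irf7 moved to 0.0045. The Irf7 to Irf3 log2 ratio turned to 0.14 in the same setting, and the cause was not tested. That setting leaves out the highest and the lowest library of Irf7 and of Irf4, which of itself reduces their fitted differences. With each library left out in turn the log2 fold changes ran from 0.16 to 0.36 for Irf4, from -0.44 to -0.12 for Irf7, from -0.13 to -0.075 for Irf8, from -0.27 to -0.11 for Irf2 and from -0.14 to -0.048 for Irf9. The lowest adjusted p of any member under any alternative was 0.602.

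The labels do not say whether equal replicate numbers mark matched libraries. Deviations from the group means correlated at 0.0058, -0.53 and -0.48 for numbers 1, 2 and 3 over 14857 genes. Deviations cancel within a group, so these correlations constrain one another and cannot settle the pairing. Under unequal numbers the correlation was 0.60 for RIP1i replicate 2 with DMSO replicate 3 and 0.40 for RIP1i replicate 3 with DMSO replicate 2. The remaining pairs ran from -0.31 to 0.29. Whether libraries were matched, under equal or other numbers, was not tested. With the replicate block Irf4 was at 0.26, Irf7 at -0.31 and Irf8 at -0.092, with 0 calls. At 521 to 976 counts per library, Irf2 and Irf7 have counting errors of 3.61% and 3.54%, below their spread between libraries.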
